A study of Mus musculus with 6 samples.

Results

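The genes described here encode transcription factors that mark or maintain the identity of the renal proximal tubule, the nephron segment that takes back most of the filtered solute and protein. The 8 genes named for the group were Hnf4a, Hnf4g, Osr2, Pax2, Pax8, Emx1, Maf and Cux1, and their members on the array are all probe sets annotated with one of these symbols and no other. Of the 8 genes, 7 had such a probe set, 28 probe sets in all, out of 18193 genes and 34945 probe sets with 1 symbol. Pax2 was not analysed here. Within these genes no probe set was picked or left out by its values, but the genes themselves were named with earlier results of these data known.

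Signals came from Affymetrix Mouse430_2 arrays hybridised with RNA of proximal tubules dissected by hand from mouse kidney. There were 3 arrays of tubules from Clcn5 knockout mice and 3 of tubules from wild type mice. ClC-5, the product of Clcn5, exchanges chloride for protons in endosomes, and Dent disease in humans follows from its loss. Each array carried RNA pooled over mice, 3 to 4 according to the design text and 7 according to the records stored with the arrays, with 80 to 100 tubule pieces of 2 mm taken per kidney. In those records the arrays count as biological replicates, so the tests measure the spread between RNA pools. The strain, age and sex of the mice, and which part of Clcn5 the knockout removes, are not given in the sources used here. Perfusion of the kidney, anaesthesia with halothane and dissection in ice-cold solution are described alike for both groups. In pooled tubules, fewer cells of a type and less RNA per cell cannot be told apart.

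Proximal tubule identity rests on a small set of DNA-binding proteins. HNF4A is a nuclear receptor that is needed in the mouse kidney for proximal tubule cells to mature and to switch on their transporter genes, and HNF4G is its close relative. PAX2 and PAX8 are paired-box proteins that together specify the nephron lineage early in kidney development, and PAX8 stays on in tubule epithelium of the adult. OSR2 is an odd-skipped zinc finger protein, MAF a large basic leucine zipper protein also known from the lens and from macrophages and T cells, EMX1 a homeodomain protein best known from the cerebral cortex, and CUX1 a cut homeodomain protein whose gene also encodes CASP, a protein of the Golgi apparatus.

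RefSeq promoter windows of 250 bases before to 50 after a start site, build GRCm38.p6, were found for 5 of the 8 genes, in 8 windows. The window of Pax8, which carried the only rise among the members, is shown. Capitals mark the words searched on both strands, CAAAGTCCA for HNF4 and TGCTGA for MAF.

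Pax8, chr2:24475550-24475849, minus strand: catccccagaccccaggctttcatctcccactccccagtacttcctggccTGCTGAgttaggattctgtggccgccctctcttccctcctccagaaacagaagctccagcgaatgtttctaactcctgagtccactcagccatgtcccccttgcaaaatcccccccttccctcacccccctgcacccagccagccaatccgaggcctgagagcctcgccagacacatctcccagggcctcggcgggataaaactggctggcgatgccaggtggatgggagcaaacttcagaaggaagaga

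The Pax8 window held the MAF word once, 200 bases before the start site, and 19.5% of all 32851 windows hold it. The HNF4 word was not in the Pax8 window and was in 0.475% of all windows. The other windows of the members, also searched, held neither word. Such a match describes the letters and not binding, and the arrays do not tell from which start site a transcript began.

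Clcn5 itself had signals of 314 ± 41.8 in knockout and 917 ± 181 in wild type tubules (SD, n = 3 each) on its brightest probe set (2.89-fold lower, limma adjusted p = 9.32e-05 over genes), and its 4 kept probe sets had log2 changes of −2.87 to −1.50, all with groups that did not overlap. Here and below a log2 change is knockout minus wild type, from limma. The median signal of an array was 40.9, 41.1 and 48.8 in knockout and 43.4, 45.3 and 42.6 in wild type. Knockout array 3, with the highest median, also had another solution lot than the other arrays. Knockout array 3 and wild type array 2 were washed on fluidics station 2 and the rest on station 1. On station 2 a log2 change is therefore knockout array 3 minus wild type array 2 alone, with no measure of spread. Pearson's r between arrays, across probe sets, was 0.973 to 0.984 within groups and 0.964 to 0.975 between them.

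Of the 28 probe sets of the members, 21 were bright enough to be tested. Their geometric mean signal (averaged on the log2 scale) over all 6 arrays was at least 41.9, the median of the array. The 21 covered Hnf4a, Osr2, Pax8, Emx1, Maf and Cux1. At an adjusted p under 0.05, 1 of the 21 was higher in the knockout tubules, Pax8, and 3 were lower, 2 of Maf and 1 of Osr2. Among all 22519 kept probe sets, 2.29% were higher and 2.46% lower, 4.76% in all. The 2 Maf probe sets share a gene, and Osr2 passed the filter only through its wild type signals, so the count over the 21 is given as a description. Without the filter, over all 28, 1 member was higher, Pax8, and 1 lower, Maf 1437473_at. The 3 knockout and 3 wild type signals did not overlap in 7 of the 21 and in none of the 7 left out, and did not overlap in 23.2% of all kept probe sets. Over the 21, 11 log2 changes were above 0 and 10 below. The median SE of a log2 change over all kept probe sets was 0.135, and the small number of arrays limits the precision.

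**Figure D1:**
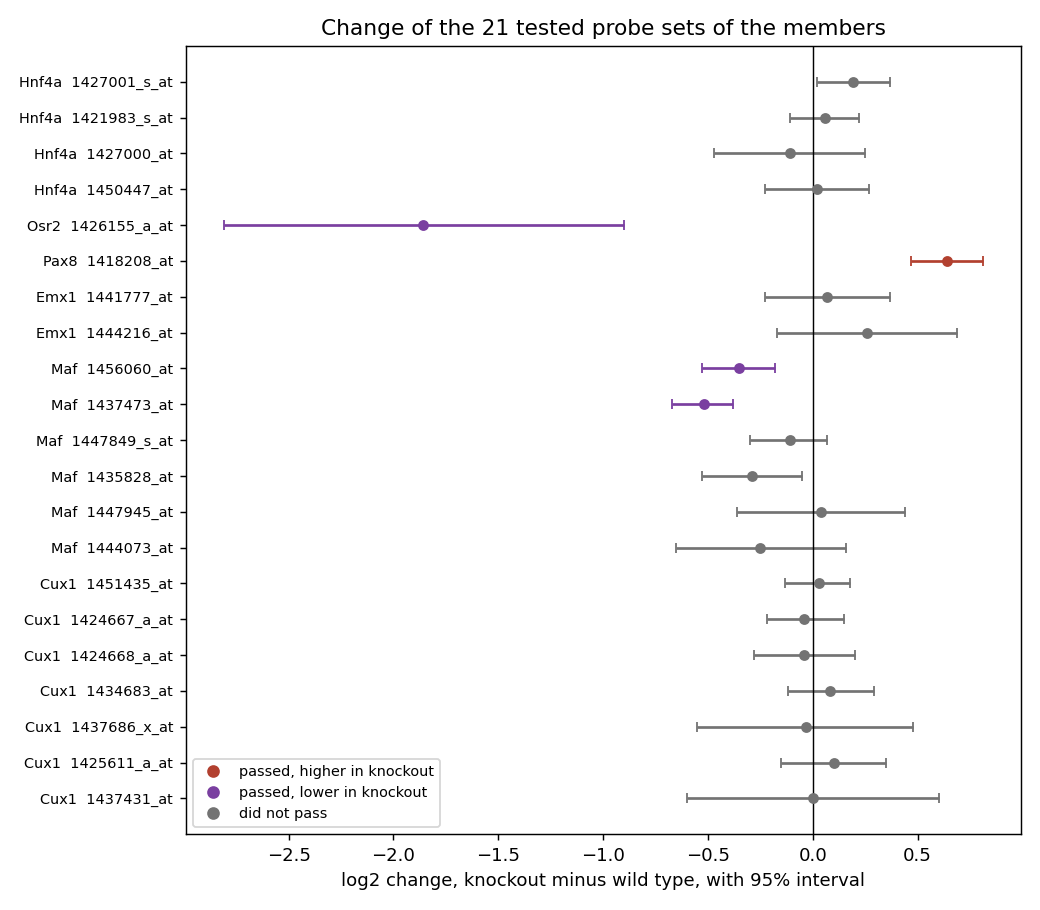
Log2 change, knockout minus wild type, of the 21 tested probe sets of the members, with 95% intervals from limma on 3 arrays per group. Pax8 1418208_at lies at 0.64, Osr2 1426155_a_at at −1.86 and 2 Maf probe sets at −0.35 and −0.52, while the Hnf4a and Cux1 probe sets lie between −0.11 and 0.19.

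Hnf4a had bright probe sets and passed on none of its 4. Probe set 1427001_s_at had signals of 3622, 3809 and 3962 on the knockout arrays and 3368, 3027 and 3588 on the wild type arrays. Every knockout array was above every wild type array by a small margin, and the log2 change was 0.19 (95% interval 0.02 to 0.37, limma adjusted p = 0.231). This probe set stood above 98.3% of the kept probe sets in mean signal, but signals of different probe sets do not share a scale.

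Probe set 1421983_s_at of Hnf4a had signals of 2159, 2275 and 1982 in knockout and 2168, 1950 and 2047 in wild type. These groups were interleaved, and the log2 change was 0.06, with an interval from −0.11 to 0.22. Probe set 1450447_at lay at 519, 626 and 670 in knockout and 656, 524 and 608 in wild type, with a log2 change of 0.02 (−0.23 to 0.27). Again neither group stood above the other. The suffix _s_at marks probes that match more than one transcript, so these probe sets may read different sets of Hnf4a transcripts.

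Probe set 1427000_at was the loosest of the Hnf4a probe sets, with signals of 2069, 2407 and 1510 in knockout and 2095, 2493 and 1815 in wild type. The lowest array was knockout array 3 and the highest wild type array 2, both of station 2. Its log2 change was −0.11 (−0.47 to 0.25), with 0.19 on station 1 and −0.72 on station 2. The coefficient of variation was 22.7% in knockout and 16.0% in wild type, against 4.48% and 8.49% for 1427001_s_at. Across the 4 probe sets the 95% intervals ran from −0.47 to 0.37.

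Hnf4g, the relative of Hnf4a, was dim on all 3 of its probe sets, which the filter left out. The brightest, 1450518_at, had signals of 23.8, 32.1 and 48.7 in knockout and 18.9, 33.9 and 31.5 in wild type. Probe set 1460127_at had 18.4, 24.7 and 32.6 in knockout and 18.1, 40.4 and 28.0 in wild type. The third, 1422182_at, had 8.85, 12.1 and 15.2 in knockout and 10.7, 4.26 and 5.45 in wild type. The groups overlapped on each. Tested without the filter, in this order, the log2 changes were 0.29, −0.16 and 0.90 (limma adjusted p = 0.828, 0.928 and 0.593). Without detection calls in the table, a signal of this size could not be told from background.

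Pax8 was the member that rose. Probe set 1418208_at had signals of 769, 769 and 836 in knockout tubules and 547, 505 and 475 in wild type tubules. The lowest knockout array was well above the highest wild type array, and the spread within a group was small beside the gap. The means were 791 ± 39.0 in knockout and 509 ± 36.3 in wild type (SD, n = 3 each), a 1.56-fold rise with a log2 change of 0.64, an SE of 0.08 and a 95% interval from 0.47 to 0.81 (limma adjusted p = 7.37e-04). Among the 22519 kept probe sets it had the 219th smallest p. The log2 change was 0.59 on station 1 and 0.73 on station 2.

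The other Pax8 probe set, 1446561_at, was below the filter, with signals of 32.9, 28.6 and 42.6 in knockout and 28.4, 31.5 and 15.3 in wild type. Its groups overlapped, and without the filter its log2 change was 0.52 (adjusted p = 0.644). PAX8 is made in other tubule segments too, and markers of segments outside the proximal tubule moved on the same arrays. Of 6 thick ascending limb markers 2 rose, with a summed signal of 13959 to 15408 in knockout and 11792 to 12331 in wild type. Of 5 distal convoluted and connecting tubule markers 3 rose, Pvalb, Calb1 and Trpm6 (sum of all 5, 15932 to 16795 in knockout, 13531 to 15847 in wild type). Slc12a3, with a log2 change of −0.12, and Klk1, the largest part of the sum, with 0.06, did not pass. Among intercalated cell markers 3 of 5 rose (2531 to 2641 in knockout, 1967 to 2051 in wild type). Of 6 principal cell markers 2 fell, Aqp2 and Aqp3 (sum of all 6, 2338 to 2525 in knockout, 2838 to 3199 in wild type). Most of that gap came from Aqp2 (means of 577 in knockout and 810 in wild type) and Aqp3 (626 and 905). Scnn1g had a log2 change of 0.28 with groups that did not overlap, and Avpr2, Scnn1b and Fxyd4 had −0.06, −0.03 and −0.20. None of these others passed. With a gene's probe sets averaged, 2 distal convoluted and connecting tubule markers rose and 1 principal cell marker fell. Without the filter 1 thick ascending limb marker rose, 2 distal convoluted and connecting tubule markers rose and 1 principal cell marker fell. The part of these cells in the rise of Pax8 was not tested.

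**Figure D2:**
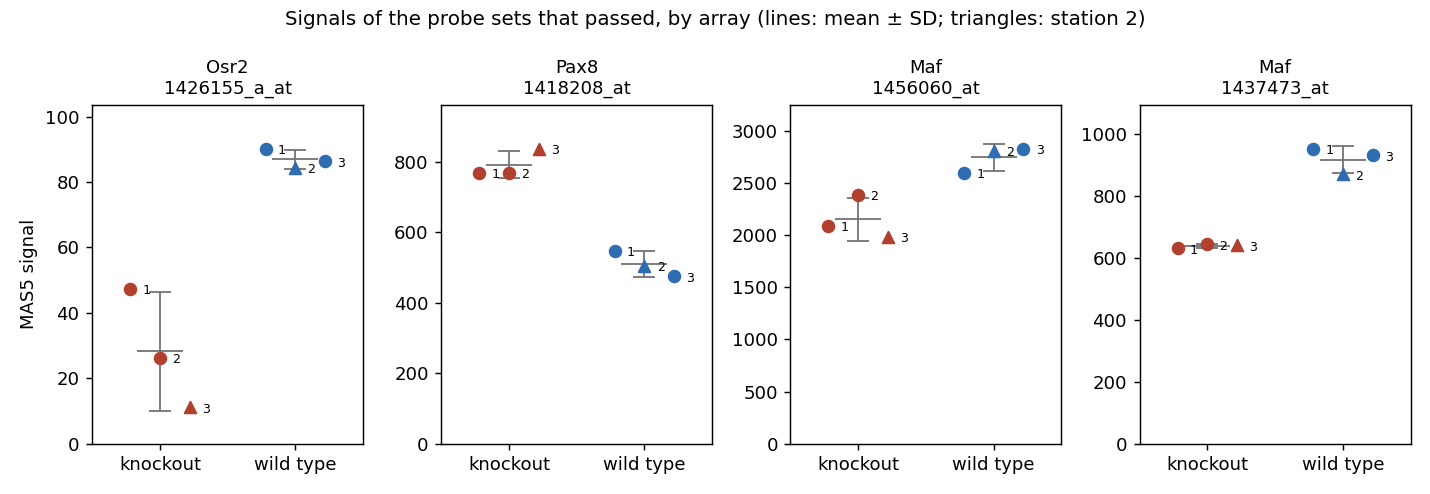
MAS5 signals of the 4 member probe sets that passed, for the knockout arrays (left) and the wild type arrays (right) of each panel, numbered by replicate, with the mean and SD of 3 arrays as lines and station 2 as triangles. Pax8 lies at 769 to 836 in knockout and 475 to 547 in wild type, and the groups are apart in every panel.

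Maf was lower in the knockout tubules on 2 of its 6 probe sets, and every Maf probe set but one had a log2 change below 0. On probe set 1437473_at the signals were 631, 644 and 642 in knockout and 953, 871 and 932 in wild type. The knockout arrays were almost equal, with a coefficient of variation of 1.08%, and lay far below the wild type arrays. The means were 639 ± 6.93 in knockout and 919 ± 42.4 in wild type (SD, n = 3 each), which is 1.44-fold lower with a log2 change of −0.52 (SE 0.06, 95% interval −0.67 to −0.38, limma adjusted p = 9.13e-04). The log2 change was −0.56 on station 1 and −0.44 on station 2.

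The brightest Maf probe set, 1456060_at, had signals of 2089, 2387 and 1984 in knockout and 2602, 2810 and 2829 in wild type. Knockout array 2 came nearest to the wild type arrays without reaching them. The means were 2153 ± 209 in knockout and 2747 ± 126 in wild type (SD, n = 3 each), 1.28-fold lower with a log2 change of −0.35 (SE 0.08, limma adjusted p = 0.0307). This call was the less firm of the Maf calls. It ended without each of the arrays except knockout array 2 (adjusted p up to 0.107), with the probe sets of the gene averaged (log2 change −0.25, adjusted p = 0.0917), with arrays centred on their medians (0.329), without an intensity trend (0.154), without a filter (0.0676) and within station 1 (0.179).

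The other 4 Maf probe sets did not pass. Probe set 1435828_at had 137, 139 and 131 in knockout and 157, 180 and 159 in wild type, with a log2 change of −0.29 (adjusted p = 0.2). Probe set 1447849_s_at had 277, 272 and 251 in knockout and 285, 299 and 280 in wild type, with a log2 change of −0.11 (0.543). In both, every knockout array was below every wild type array.

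The remaining 2 Maf probe sets were dim and their groups overlapped. Probe set 1444073_at had 49.3, 57.8 and 52.4 in knockout and 56.7, 67.6 and 65.4 in wild type, and a log2 change of −0.25. Probe set 1447945_at had 71.7, 90.2 and 102 in knockout and 73.6, 97.6 and 85.0 in wild type, and the one log2 change above 0, 0.04. The 95% interval of 1437473_at, −0.67 to −0.38, did not reach that of 1447849_s_at, −0.30 to 0.07, and the sources used here do not place the probe sets along the transcript. MAF is also made by macrophages. The 8 leukocyte and macrophage markers, with 1 probe set per gene, were all above 0, opposite in direction to Maf, but only 2 rose. These were Cd74 (means of 1095 in knockout and 662 in wild type) and Csf1r (873 and 583). The summed signal was 2711 to 2853 in knockout and 1906 to 1976 in wild type, with most of the gap from Cd74 and Csf1r. Ptprc, Cd68, Adgre1, C1qb and Lyz2 had groups that overlapped, and the other kept C1qb probe sets had log2 changes of −0.20 and 0.53. The part of leukocytes in the Maf values was not tested.

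Osr2 was lower in the knockout tubules on a dim probe set that reached the filter through its wild type signals alone. Probe set 1426155_a_at had signals of 47.3, 26.2 and 11.1 in knockout and 90.1, 84.4 and 86.3 in wild type. The wild type arrays lay close together and the knockout arrays were spread over a wide range below them, with coefficients of variation of 64.3% in knockout and 3.36% in wild type. The means were 28.2 ± 18.1 in knockout and 86.9 ± 2.92 in wild type (SD, n = 3 each), 3.62-fold lower with a log2 change of −1.86 (SE 0.43, 95% interval −2.81 to −0.90, limma adjusted p = 0.0353). Its geometric mean signal over all 6 arrays, 45.7, was just above the filter, and it stood above only 4.04% of the kept probe sets.

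The fold of Osr2 rests on dim knockout signals and is not a firm size. With 50 added to every signal the log2 change was −0.83, past the threshold. That setting used the same kept probe sets, so its pass also rests on the wild type signals. Without this addition the values were −1.32 on station 1 and −2.92 on station 2. The call ended within station 1 (adjusted p = 0.0767), without knockout array 2 (0.0869), under quantile normalization (0.0632), without a filter (0.0921) and without an intensity trend (0.119), and without any of the wild type arrays the probe set was too dim to be tested. The log2 change was −2.35 without knockout array 1 and −1.30 without knockout array 3. The other Osr2 probe set, 1430950_at, had 10.5, 2.61 and 1.75 in knockout and 10.4, 18.6 and 2.28 in wild type, and did not separate the groups.

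Emx1 did not pass on either probe set. Probe set 1441777_at had signals of 233, 194 and 264 in knockout and 204, 201 and 254 in wild type, with a log2 change of 0.07 (95% interval −0.23 to 0.37). Array 3 was the highest of its group in both. Probe set 1444216_at had 69.4, 80.6 and 78.4 in knockout and 54.2, 58.2 and 81.2 in wild type, with a log2 change of 0.26 (−0.17 to 0.69). Wild type array 3 was the highest of all 6, so the groups overlapped.

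Cux1 had 9 probe sets, more than any other member, of which 7 were tested and none passed. The brightest, 1451435_at, had signals of 945, 981 and 871 in knockout and 958, 877 and 909 in wild type, with a log2 change of 0.03 (95% interval −0.13 to 0.18). Probe set 1424667_a_at had 468, 494 and 528 in knockout and 503, 555 and 473 in wild type, with a log2 change of −0.04 (−0.22 to 0.15). The groups overlapped on all 9 probe sets. Over the 7 tested, the log2 changes ran from −0.04 to 0.10. Probe set 1437686_x_at varied most among those with a mean signal over 100, with 210, 170 and 322 in knockout and 209, 191 and 309 in wild type. There array 3 was the highest of both groups, and the suffix _x_at marks probes that may bind other transcripts. The 2 untested Cux1 probe sets, 1441956_s_at and 1425612_at, had means of 21.9 and 11.4 in knockout and 32.3 and 10.7 in wild type.

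**Figure D3:**
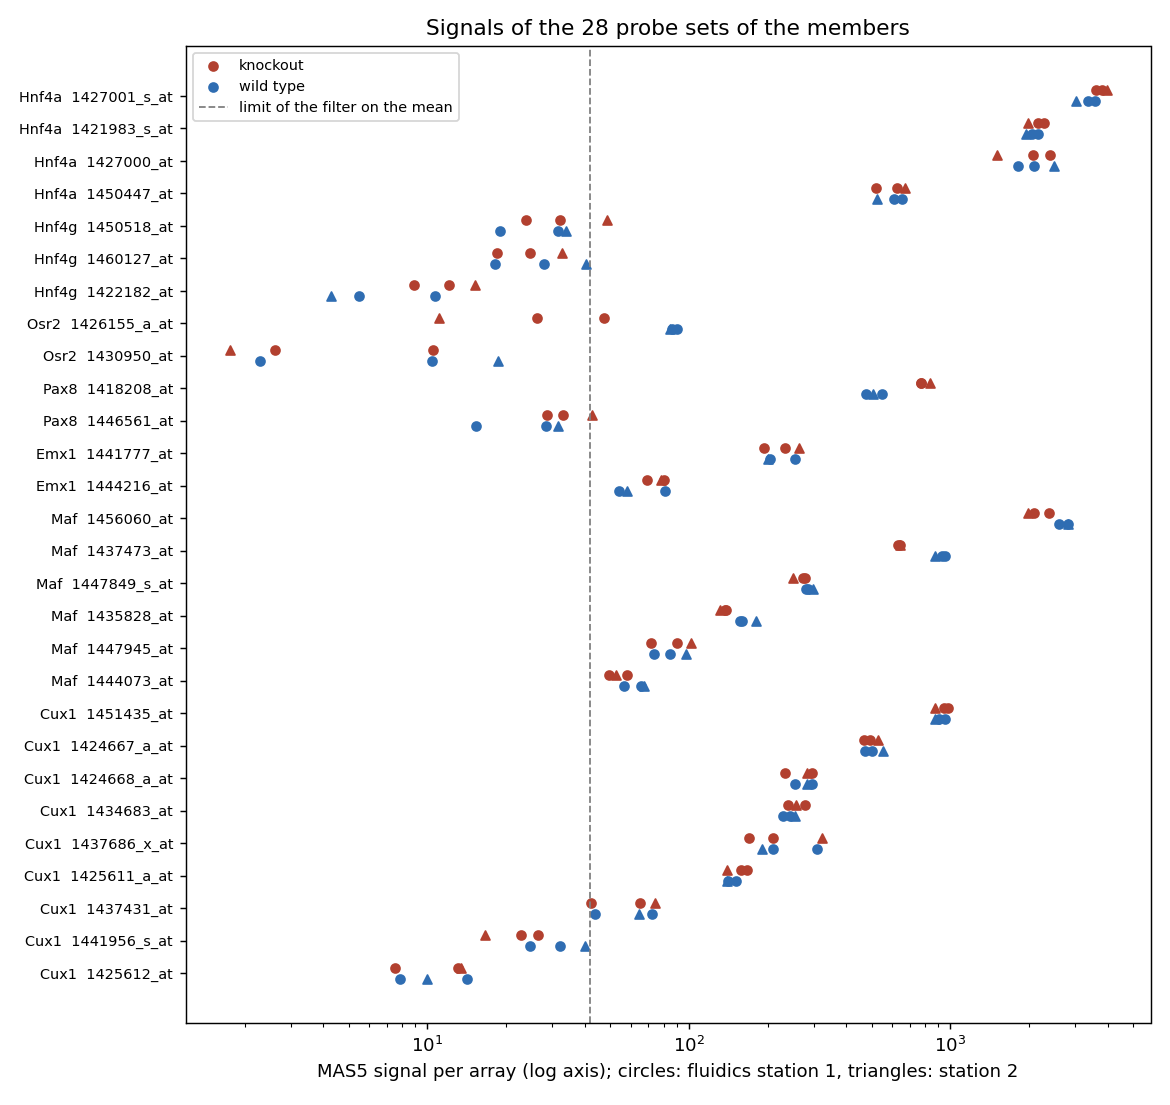
MAS5 signals of all 28 member probe sets on a log axis, knockout above wild type within each row, circles for station 1 and triangles for station 2. The dashed line is the signal of 41.9 that the geometric mean of a probe set had to reach. The brightest Hnf4a probe set lies at 3027 to 3962 and the brightest Maf probe set at 1984 to 2829, the Hnf4g probe sets below 50, and the knockout signals of Osr2 1426155_a_at straddle the line.

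The genes most like each changed member over the 6 arrays were found by Pearson's r of log2 signals, which reflects the groups as much as the arrays and is given as a description. For Pax8 they were Mfsd2a, a lysophospholipid transporter gene (r = 0.998, log2 change 1.57), the kinase gene Plk2 (0.997, 0.80) and the RNA-binding protein gene Rbm47 (0.997, 0.20). For Maf 1437473_at they were Cyp4a31, of the fatty acid omega-hydroxylase family (r = 0.999, log2 change −0.71), the connexin gene Gjb1 (0.996, −0.88) and Nnt, of the mitochondrial nicotinamide nucleotide transhydrogenase (0.996, −0.22). For Maf 1456060_at they were Colgalt1, Rnf217 and Trim24, and for Osr2 1426155_a_at 1700003F12Rik, Hrg and Rrnad1, with r of 0.988 to 0.993.

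Relatives of the members, other regulators of the tubule and genes of the proximal tubule program were counted with 1 probe set per gene. Of all 11620 genes so tested, 3.24% were higher and 3.24% lower, with a median log2 change of 0.01. Of 16 family relatives, 14 were on the array and 5 were bright enough, Emx2, Mafg, Mafk, Cux2 and Pax5, and none passed (median 0.14, and 0.07 with a gene's probe sets averaged). Pax5 and Mafg had the smallest p, with log2 changes of −0.58 and 0.17 (limma adjusted p = 0.447 and 0.459). Knockout array 1 carried the Pax5 value, with a signal of 22.0 against 60.2 and 64.3 on the other knockout arrays, and without it the log2 change was −0.07. For Mafg the log2 change was 0.10 without knockout array 1, 0.07 without wild type array 1 and 0.26 without wild type array 3. Osr1, the relative of Osr2, was too dim to be tested.

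Of 6 other regulators of proximal tubule genes, all were tested and none passed, with a median log2 change of −0.02, or −0.10 and 1 gene lower with a gene's probe sets averaged. Ppara, which encodes the fatty acid receptor PPARα, came nearest, with signals of 648 ± 153 in knockout and 920 ± 49.6 in wild type (SD, n = 3 each), a log2 change of −0.53 and a limma adjusted p of 0.0573. Ppara did pass with the station as a block (adjusted p = 0.012), with a replicate block (0.0354), under quantile normalization (0.0427), with the stricter filter (0.0393), with its probe sets averaged (0.0391) and without knockout array 2 (0.0184) or 3 (0.0434). Its log2 change was −0.68 without knockout array 2 and −0.33 without knockout array 3. Esrra, of the oestrogen-related receptor alpha that controls mitochondrial genes, had a log2 change of −0.18 (adjusted p = 0.393), which was −0.05 without knockout array 3 and −0.28 without knockout array 1. The bile acid receptor gene Nr1h4, the retinoid receptor gene Rxra, Klf15 and Ppargc1a had log2 changes of −0.09 to 0.13.

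Among 15 tested transcription factors of other nephron segments and of podocytes, none passed. Their median log2 change was 0.24, with 9 above 0 and 6 below, and it was 0.10 over all 17 when dim genes were included. Tcf21, of podocytes and stroma, had signals of 155 ± 6.99 in knockout and 191 ± 8.95 in wild type, and Irx3, of a homeodomain factor of nephron segments, had 504 ± 41.0 in knockout and 427 ± 16.9 in wild type (SD, n = 3 each; limma adjusted p = 0.11 and 0.117).

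Coregulators of HNF4 and the receptors that compete for its sites showed 1 rise in 11 tested genes, with a median log2 change of 0.19, which was 0.07 with a gene's probe sets averaged and 0.04 over all 13 without the filter. Nr2f6, an orphan receptor of the COUP-TF family, was 1.37-fold higher, with signals of 931 ± 128 in knockout and 674 ± 7.08 in wild type (SD, n = 3 each; log2 change 0.46, limma adjusted p = 0.0104), and its other kept probe set had a log2 change of 0.74. The call ended without an intensity trend (adjusted p = 0.0783).

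The proximal tubule program was read from 23 tested genes of transport, uptake, metabolism and secretion, and 1 rose and 3 fell, or 5 fell with a gene's probe sets averaged. Ttr, of the thyroid hormone carrier transthyretin, was 2.15-fold lower, with signals of 1517 ± 132 in knockout and 3257 ± 79.0 in wild type (SD, n = 3 each; log2 change −1.11, limma adjusted p = 8.75e-06), and its other 3 kept probe sets had log2 changes of −1.35 to −1.06. Dpp4, of a brush border peptidase, was 1.56-fold lower, with 170 ± 10.7 in knockout and 264 ± 2.67 in wild type (adjusted p = 0.00142). Hpd, of a tyrosine breakdown enzyme, was 1.35-fold lower (log2 change −0.43, adjusted p = 0.00226), a call that ended with arrays centred on their medians (0.108).

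Apom, of an apolipoprotein, was the gene of this list that rose, 1.25-fold (log2 change 0.32, limma adjusted p = 0.0111). This call ended when wild type array 1 (adjusted p = 0.0542) or 2 (0.0512) was left out, without an intensity trend (0.0809), within station 1 (0.0814) and with centred arrays (0.238). The other 19 did not pass, among them the sodium-glucose cotransporter gene Slc5a2, with signals of 3532 ± 237 in knockout and 3590 ± 123 in wild type (SD, n = 3 each), and the amino acid transport partner gene Cltrn, with 4625 ± 451 in knockout and 4810 ± 75.8 in wild type. Over the whole list the median was −0.02 on the log2 scale, and the summed signal was 64559 to 68067 in knockout and 64266 to 72242 in wild type.

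**Figure D4:**
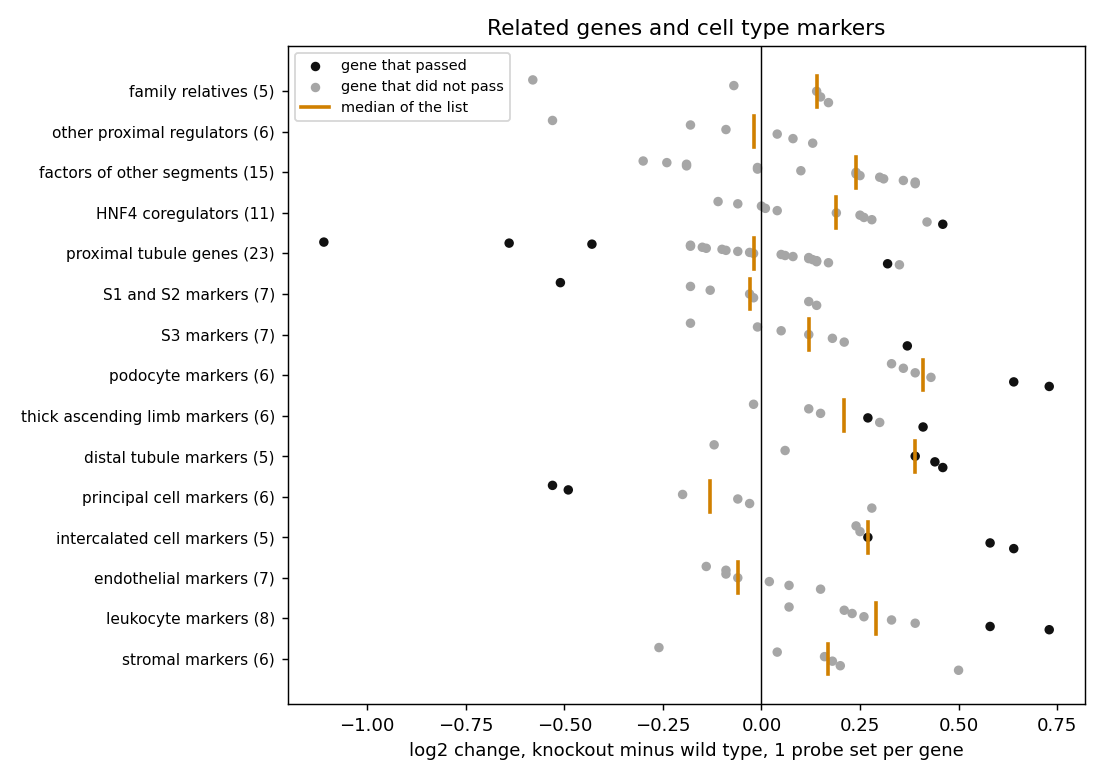
Log2 change, knockout minus wild type, of the tested genes of each list with 1 probe set per gene; black points passed limma's threshold, grey points did not, orange bars are medians and the number tested is in brackets. Ttr lies at −1.11 among the proximal tubule genes, whose median is −0.02, while the medians of podocyte, thick ascending limb, distal convoluted and connecting tubule, principal cell, intercalated cell and leukocyte markers are 0.41, 0.21, 0.39, −0.13, 0.27 and 0.29.

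The labelled tissue was checked against segment markers. The S1 and S2 markers, such as Slc34a1 of a sodium-phosphate cotransporter, summed to 24791 to 27034 in knockout and 25037 to 28292 in wild type, and 1 of 7, the amino acid transporter gene Slc6a19, fell, or 2 with a gene's probe sets averaged. The S3 markers summed to 13352 to 14304 in knockout and 11744 to 12836 in wild type. Of the 7, 1 rose, Slc7a13 (means of 4777 in knockout and 3692 in wild type). Acy3, the largest part of the sum, had a log2 change of 0.18 and groups that overlapped. The log2 changes of the rest ran from −0.18 (Cyp7b1) to 0.21 (Slc5a1). Of 6 podocyte markers 2 rose and all were above 0 (1332 to 1566 in knockout, 1027 to 1078 in wild type). None of 7 endothelial and 6 stromal markers passed, and their sums were 2013 to 2258 and 1098 to 1107 in knockout and 2059 to 2157 and 950 to 1047 in wild type. Signals of distal segments were thus present in both groups, and their part in the results above was not tested.

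**Figure D5:**
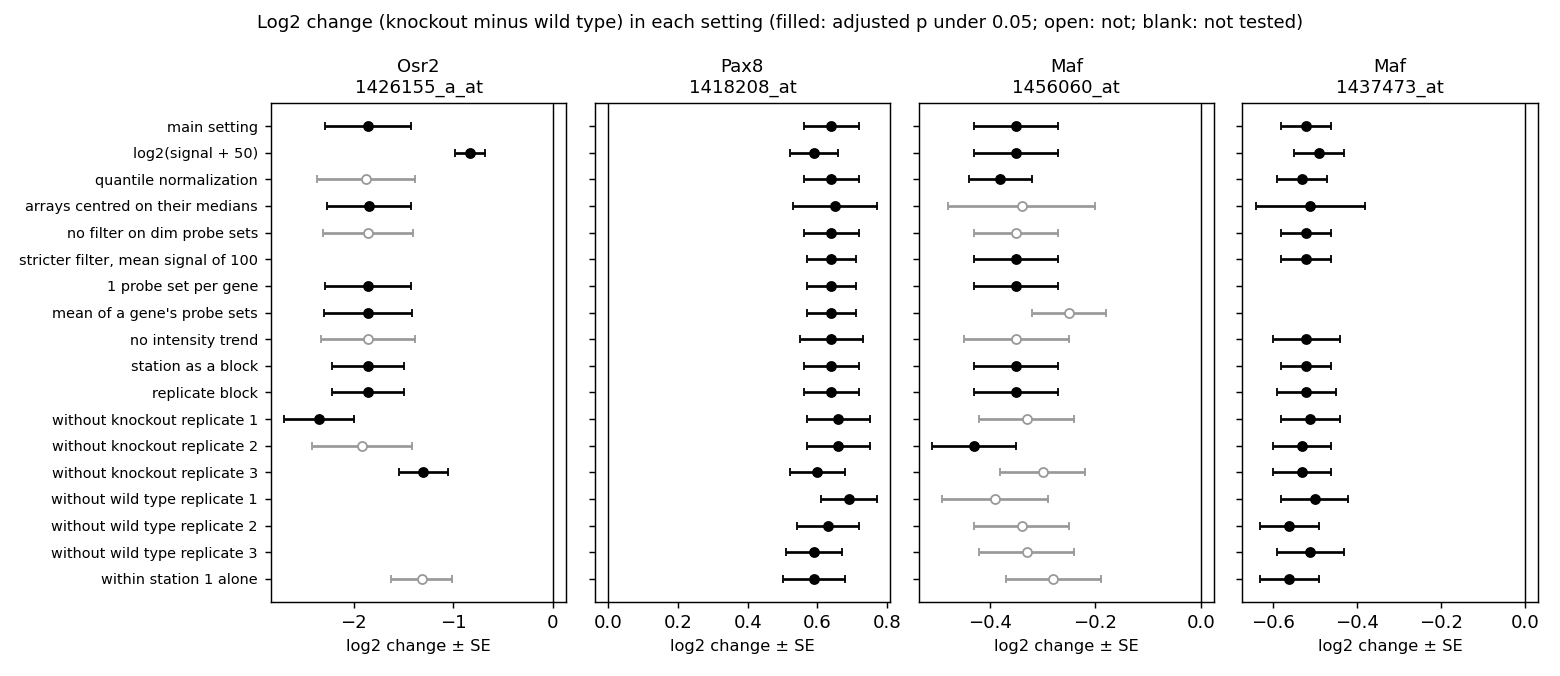
Log2 change with its SE for the 4 member probe sets that passed, in the main setting and in each alternative; filled points have an adjusted p under 0.05, open points do not, and a missing point was not tested there. Pax8 1418208_at and Maf 1437473_at are filled wherever they were tested, while Osr2 1426155_a_at and Maf 1456060_at are not filled in every setting. The average of Maf's probe sets, which includes 1437473_at, is drawn under 1456060_at.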

How the data were processed

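Per the submitters' processing notes, which name GCOS 1.4 and MAS5, the authors deposited linear signal intensities, whose trimmed mean is 150 on each array. Of 45037 probe sets that are not controls, 34945 carry 1 gene symbol in the platform annotation. The array records, which are text, gave the station and the pool.

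All signals were above 0, so log2 was taken with no pseudocount. Probe sets with a mean log2 signal at or above the median were kept (22519). The difference, knockout minus wild type, was tested in limma 3.58.1 (R 4.3.3; lmFit, then eBayes with trend), two-sided, with Benjamini-Hochberg adjustment over all kept probe sets, or over genes, represented by their kept probe set with the highest mean, for the gene lists. Means and SDs are of linear signals, except the geometric means named as such. The working of the fit was checked on simulated data with independent normal noise. These hold no station or lot effect, so they do not test the calls made here. Tables and plots used Python 3.11.15.

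The named genes are all member probe sets, up to 4 passing genes of each list by smallest p, or 2 where none passed, Clcn5, and the 3 genes most correlated with each changed probe set. Others named were chosen after their values were seen. The members and lists were chosen with earlier results of these data known. Some items are not reported here. Of 146 list entries, 137 are on the array. Each array was left out in turn, and other transforms, normalizations, filters, units, variance models and blocks were tried.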

Additional observations from a re-analysis of the deposited data

How the results depend on the processing

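Pax8 1418208_at and Maf 1437473_at kept their direction and passed under every alternative that tested the probe set itself. Their log2 changes were 0.59 to 0.69 and −0.56 to −0.49. The average of Maf's kept probe sets, which includes 1437473_at, did not pass (log2 change −0.25, limma adjusted p = 0.0917). With averaged probe sets the member called lower was Osr2 (limma adjusted p = 0.0368), which reached the filter through its wild type signals alone. Pax8 was the only member called higher in each setting. The count of member probe sets called lower, 3, was 1 at an adjusted p under 0.01, without a filter, without an intensity trend, with a gene's probe sets averaged and within station 1 (added after seeing the data), and 1 to 2 when an array was left out, with 1 without each wild type array. The count of all called probe sets, 1071, was 589 at 0.01, 596 with arrays centred on their medians, 615 without an intensity trend, 646 within station 1, 689 genes with averaged probe sets, and 663 to 1022 when an array was left out, with 663 without wild type array 1. By limma 852 probe sets were called without a filter and 1166 under quantile normalization.

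Same-numbered arrays did not deviate together (correlations of 0.01, 0.04 and −0.04 for numbers 1 to 3). With a replicate block 1101 probe sets were called, among them 1 member higher and 3 lower.

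Of the 17 member probe sets that did not pass, 8 kept their sign under every alternative that tested them and 9 did not. Within station 1 the log2 change was 0.19 for Hnf4a 1427000_at, −0.15 for Hnf4a 1450447_at, −0.10 for Emx1 1441777_at and −0.10 for Cux1 1437431_at. Leaving out an array gave −0.26 to 0.08 for Hnf4a 1427000_at, −0.07 to 0.13 for Hnf4a 1450447_at, −0.04 to 0.18 for Emx1 1441777_at and −0.08 to 0.17 for Maf 1447945_at. For Cux1 it gave −0.01 to 0.08 (1451435_at), −0.09 to 0.02 (1424667_a_at), −0.10 to 0.07 (1424668_a_at), −0.29 to 0.18 (1437686_x_at) and −0.21 to 0.24 (1437431_at). The cause was not tested. With averaged probe sets 1 of the other proximal regulators and 5 of the proximal tubule program were called lower. Signals carry no detection calls, so dim values such as those of Osr2 and Hnf4g are limited by background.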
